A study of Mus musculus with 6 samples.

Results

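The receptor for granulocyte colony-stimulating factor (G-CSF), the STAT factors it engages and the SOCS proteins that restrain it were followed in Ly6G-selected bone marrow (BM) neutrophils as 10 genes chosen by name. These were the receptor genes Csf3r, Csf2rb and Il6ra, the kinase gene Jak2, the transcription factor genes Stat3 and Stat5b, the feedback inhibitor genes Socs1, Socs3 and Cish, and the kinase gene Pim1. All 10 were among the 38887 Ensembl identifiers of the count table, and all 10 were among the 12259 genes with enough reads to be tested. The study compared naive mice with mice that carried LL2 tumors, a luciferase-expressing line of Lewis lung carcinoma. The cells were injected into the vein and formed lesions in the lung. Each group, naive, one-week LL2 and three-week LL2, had 2 RNA libraries, each labelled as a mouse with a replicate number. Naive mice carried no tumor. The labels name no other agent, strain, sex or age, and the methods describe C57BL/6 mice for the study as a whole. Neutrophils were taken by Ly6G beads only, so the libraries were bulk RNA of everything the beads retained.

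G-CSF is the main growth factor of neutrophil production in the BM, and its receptor has no enzyme activity of its own. Binding of the ligand activates JAK kinases attached to the receptor, which phosphorylate STAT proteins, and the STAT proteins then act as transcription factors. Among the genes they switch on are their own brakes, the SOCS proteins, which bind phosphorylated receptors or JAK kinases and end the signal. Receptors for GM-CSF, interleukin-3 (IL-3), IL-5 and IL-6 use the same scheme with other chains.

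SOCS3 and CIS, the product of Cish, are the feedback inhibitors best known as direct STAT targets, and STAT dimers bind the motif TTCNNNGAA. This motif was searched on both strands (it is its own reverse complement) in RefSeq promoters of GRCm38.p6, each 300 bases long, with 250 before and 50 after the annotated start. Promoters were present for 9 of the 10 genes, all but Csf2rb, and 2 of the 9, Socs3 and Cish, held the motif. Of the 27025 genes with a promoter in the table, 9.55% held it, so the motif by itself is common. The 2 sequences are shown because they belong to the inhibitor that rose most and to the one with a pair of motifs, with the motifs in capitals. The Socs3 stretch covers positions -250 to -86 from the start on the minus strand (chr11:117969452-117969616), within an intron of a longer non-coding Socs3 transcript of GENCODE. The Cish stretch covers positions -10 to 20 on the plus strand (chr9:107296649-107296678), inside the first exon and 5′ UTR of the GENCODE transcript, which starts further upstream.
Socs3: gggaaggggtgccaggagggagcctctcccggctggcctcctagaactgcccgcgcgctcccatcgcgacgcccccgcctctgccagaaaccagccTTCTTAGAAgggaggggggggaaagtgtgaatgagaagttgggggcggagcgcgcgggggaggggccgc
Cish: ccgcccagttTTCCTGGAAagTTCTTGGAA
The motif of Socs3 began at position -154 and those of Cish at positions 1 and 12. A match describes these letters and was not measured as a binding site.

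Libraries held between 11994158 and 14127919 counts, and the detection limit of 3 counts came to 0.212 to 0.25 CPM (library-scaled counts), a limit that covers counting error only. Levels are CPM on library totals scaled by the TMM method, and ± is the SD of the 2 libraries of a group. Changes are log2 fold changes with their standard error (SE) from edgeR's quasi-likelihood test of all tested genes, called at an adjusted p under 0.05. The TMM scaling matters for the balance of all calls: in three-week against one-week LL2 mice, 1586 genes were higher and 1173 lower, and with library totals alone 856 and 2136. Against naive mice the three-week calls were 1471 higher and 1155 lower, and 890 and 1675 with library totals alone. That scaling shifted the median of all genes to -0.11 at 3 weeks against naive mice and to -0.23 between the weeks. Among neutrophil markers, S100a8 held between 147327 and 228689 CPM, whereas Ly6g itself, which encodes the antigen used for selection, held only 0.491 to 2.14 CPM. Fewer cells of a type and less RNA per cell cannot be told apart in such bulk libraries.

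The G-CSF receptor gene was the most abundant of the 10 per length in every group, and Socs3 moved furthest in the order. With CPM divided by the summed exon length in kilobases, Csf3r had 198 ± 7.79 in naive mice, followed by Stat3 with 78.1 ± 4.27 and Csf2rb with 38.3 ± 8.67. Pim1, Stat5b, Jak2, Socs3 and Socs1 came next, from 18.2 ± 4.13 down to 6.78 ± 0.28, and the libraries of Jak2 and Socs3 overlapped. Il6ra with 1.68 ± 0.17 and Cish with 0.912 ± 0.226 were lowest. The order was the same in one-week LL2 mice except that Cish and Il6ra changed places. In three-week LL2 mice Socs3 was the fourth with 56.1 ± 3.42, above Pim1 with 32.0 ± 6.3, and the libraries of Stat3 and Csf2rb overlapped at 104 ± 3.14 and 95.1 ± 15.3. Cish has long annotated exons, which lowers its value on this scale.

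**Figure D1:**
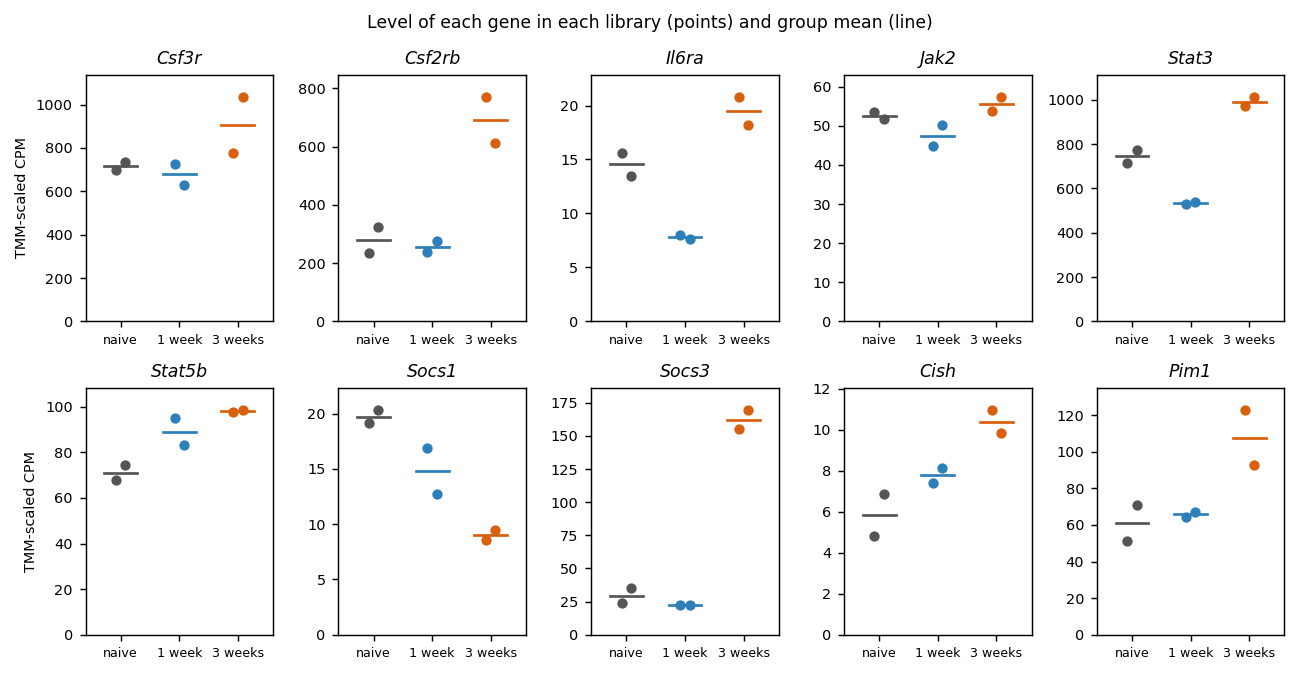
TMM-scaled CPM (linear axes from 0, one panel per gene) of the 10 genes in each library, with points for the 2 libraries of naive, one-week and three-week LL2 mice and lines for group means. Socs3 lies at 155 and 169 CPM in three-week LL2 mice and between 22.6 and 35.5 CPM in the other 4 libraries.

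Within 1 week of tumor injection, none of the 10 genes rose and 2 fell, Stat3 and Il6ra, by edgeR and by DESeq2. At an unadjusted p under 0.05, edgeR gave 1 higher and 4 lower. Across all tested genes, 7.99% were called in this comparison, 3.76% lower and 4.23% higher. Stat3 encodes the main transcription factor downstream of the G-CSF and IL-6 receptors, and Il6ra the chain that binds IL-6. Stat3 (ENSMUSG00000004040, chr11:100885098-100939540 of GRCm38, minus strand) had 715 and 773 CPM in naive libraries and 531 and 538 CPM in one-week libraries. Its log2 fold change was -0.48 (SE 0.108, adjusted p = 0.0176). Il6ra (ENSMUSG00000027947, chr3:89864059-89913196) had 15.6 and 13.5 CPM in naive libraries against 8.01 and 7.61 at 1 week, a log2 fold change of -0.90 (SE 0.174, adjusted p = 0.00862). Neither gene showed overlap between naive and one-week libraries. The same held for Jak2, Stat5b, Socs1, Socs3 and Cish, which were not called, so with 2 libraries per group a lack of overlap by itself says little. The other 8 genes did not pass the test, with log2 fold changes between -0.41 for Socs1 and 0.41 for Cish. The interval of the change was -0.38 to 0.22 for Csf3r, -0.41 to 0.12 for Jak2 and -0.46 to 0.23 for Csf2rb (95%, log2). Stat3 lost its call without naive replicate 1, naive replicate 2, one-week replicate 1 or one-week replicate 2, with adjusted p-values of 0.0633, 0.0686, 0.132 and 0.114, and Il6ra without naive replicate 1 (0.103) or one-week replicate 2 (0.0643).

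By 3 weeks 6 of the 10 genes were higher than in naive mice, namely Socs3, Csf2rb, Cish, Pim1, Stat5b and Stat3, and 1, Socs1, was lower. Over all tested genes 21.4% were called, 12.0% higher and 9.42% lower. The median log2 fold change of the 10 genes was 0.44, against 0.04 for all tested genes. Against one-week LL2 mice, 6 genes were higher at 3 weeks, namely Socs3, Csf2rb, Il6ra, Stat3, Pim1 and Csf3r, and Socs1 was again lower, where 22.5% of all tested genes were called, 12.9% higher and 9.57% lower. The median was 0.56, against -0.02 for all tested genes. Both counts use the same three-week libraries, and the 2 comparisons with naive mice share the naive libraries. The plot of log2 fold changes shows the 3 comparisons gene by gene.

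**Figure D2:**
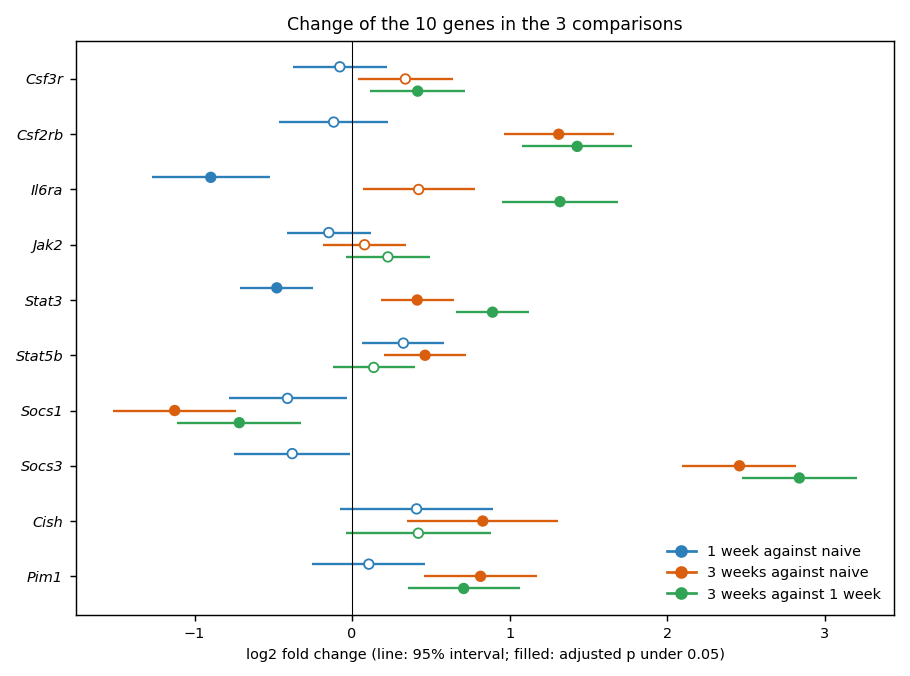
Log2 fold change of the 10 genes in the 3 comparisons, with lines for the 95% interval and filled points for an adjusted p under 0.05. Socs3 stands at 2.46 against naive mice and 2.84 against one-week LL2 mice, while the 3 intervals of Jak2 include 0.

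Receptors. Csf3r (ENSMUSG00000028859, chr4:126024550-126044440) had small changes, and its call between the weeks depended on the processing and on single libraries. It had 696 and 736 CPM in naive libraries, 727 and 630 at 1 week, and 775 and 1035 at 3 weeks. The naive and one-week libraries overlapped, and the three-week libraries lay above the other 4 but were far apart from each other. Against naive mice its log2 fold change of 0.34 (SE 0.139) did not pass the test (adjusted p = 0.104). Against one-week LL2 mice it was 0.42 (SE 0.139, adjusted p = 0.0475). This call of edgeR was lost without three-week replicate 2, whose level is the highest (0.20, adjusted p = 0.377), and without each of naive replicate 1 (0.0756), naive replicate 2 (0.0552), one-week replicate 1 (0.0941) and one-week replicate 2 (0.345). It was also lost with library totals alone, at 0.22 (adjusted p = 0.287), with the replicate number as a block (0.0585), with edgeR on the 2 groups alone (0.0621) and with a filter of 1 CPM (0.0505). Against naive mice Csf3r was called once three-week replicate 1 was left out, with 0.54 (adjusted p = 0.0154).

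Csf2rb (ENSMUSG00000071713, chr15:78325752-78353847) encodes the common beta chain of the GM-CSF, IL-3 and IL-5 receptors. Its levels were 234 and 324 CPM in naive libraries, 237 and 278 at 1 week and 771 and 613 at 3 weeks. Naive and one-week libraries overlapped, and both three-week libraries were above all others. The log2 fold change was 1.31 (SE 0.162, adjusted p = 1.07e-04) against naive and 1.43 (SE 0.162, adjusted p = 4.82e-05) against one-week LL2 mice. Its neighbor Csf2rb2 encodes the closely related beta chain that mice use for IL-3, and went from 6.41 and 7.61 CPM in naive libraries to 40.0 and 31.8 at 3 weeks, with 5.54 and 7.83 between. Its log2 fold changes were 2.35 (adjusted p = 4.99e-06) and 2.43 (adjusted p = 3.39e-06). Of all 50-base windows in Csf2rb transcripts, 12.3% also occur in Csf2rb2, and 18.4% of those in Csf2rb2 occur in Csf2rb, so reads there cannot be assigned to 1 gene by sequence. With the counts of both genes summed, an alternative chosen after seeing the data, the log2 fold changes were 1.35 (adjusted p = 8.59e-05) and 1.46 (adjusted p = 4.04e-05). Csf2ra, which encodes the alpha chain that gives the GM-CSF receptor its specificity, had 27.1 and 30.5 CPM in naive libraries and 24.6 and 25.8 at 3 weeks. It was not called (-0.19, adjusted p = 0.358).

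Il6ra behaved differently from both. It had 20.8 and 18.2 CPM at 3 weeks, above the naive libraries, which were in turn above the one-week libraries. The rise from 1 week was 1.32 (SE 0.172, adjusted p = 1.39e-04), and the change from naive mice, 0.42, did not pass the test (adjusted p = 0.0869). Il6st, which encodes gp130, the signaling partner of the IL-6 receptor chain, lay between 0.491 and 2.01 CPM in all 6 libraries, close to the limit of detection. Its log2 fold change at 3 weeks was 0.17 against naive mice (adjusted p = 0.883).

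Kinase and STAT factors. Jak2 (ENSMUSG00000024789, chr19:29251828-29313080), which encodes the kinase used by the beta chain of the GM-CSF receptor and by the G-CSF receptor, had 53.5 and 51.7 CPM in naive, 44.7 and 50.3 in one-week and 53.8 and 57.4 in three-week libraries. It was not called in any comparison, although its libraries overlapped between no groups. The interval of its change at 3 weeks was -0.19 to 0.34 against naive and -0.04 to 0.49 against one-week LL2 mice (95%, log2), which leaves out a change of the size seen for Csf2rb. Stat3 reached 969 and 1012 CPM at 3 weeks, above the naive libraries, so that its levels fell first and then rose past the starting level. The log2 fold change between the weeks was 0.89 (SE 0.108, adjusted p = 8.09e-05), and that against naive mice 0.41 (SE 0.107, adjusted p = 0.0155). The second of these was lost with library totals alone (0.27, adjusted p = 0.0818), with edgeR on the 2 groups alone (0.0529) and without naive replicate 1 (0.115) or three-week replicate 2 (0.0668).

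Stat5b (ENSMUSG00000020919, chr11:100780731-100850724, minus strand) encodes one of the 2 STAT5 proteins, which serve the GM-CSF, IL-3 and IL-5 receptors. It had 68.1 and 74.3 CPM in naive libraries, 95.3 and 83.0 at 1 week, and 97.7 and 98.4 at 3 weeks. All 4 tumor libraries were above both naive libraries. Against naive mice the log2 fold change was 0.33 at 1 week (SE 0.121, adjusted p = 0.118), which did not pass the test, and 0.46 at 3 weeks (SE 0.121, adjusted p = 0.016). Between the weeks it was 0.14 (interval -0.12 to 0.40, 95%, adjusted p = 0.448). The call at 3 weeks was lost with library totals alone (0.32, adjusted p = 0.0899) and without naive replicate 1 (0.137), three-week replicate 1 (0.0527) or three-week replicate 2 (0.0589). Stat5a, its close copy and neighbor, with 11% of the windows of Stat5b shared, stayed between 26.4 and 29.9 CPM in all 6 libraries and was not called.

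Feedback inhibitors and PIM1. Socs3 (ENSMUSG00000053113, chr11:117966079-117970047, minus strand) encodes the inhibitor that binds the activated G-CSF and IL-6 receptors, and its promoter with a single TTCNNNGAA motif is printed above. It had 23.6 and 35.5 CPM in naive libraries, 22.6 and 22.8 at 1 week, and 155 and 169 at 3 weeks. Three-week libraries were far above the other 4, and the one-week libraries were just below the naive ones. The log2 fold change was 2.46 against naive mice (SE 0.167, adjusted p = 1.12e-06), which is 5.49-fold, and 2.84 against one-week LL2 mice (SE 0.17, adjusted p = 3.37e-07), which is 7.15-fold. At 1 week it was -0.38 (adjusted p = 0.197). Under 14 alternatives the change against naive mice ran from 2.16 to 2.79 and stayed called in each.

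Socs1 (ENSMUSG00000038037, chr16:10782240-10785536, minus strand), whose product restrains JAK kinases and is best known as a brake on interferon signaling, went the other way. It had 19.2 and 20.3 CPM in naive libraries, 16.9 and 12.8 at 1 week, and 8.61 and 9.46 at 3 weeks. Each group lay wholly below the one before it. The log2 fold change at 3 weeks was -1.13 against naive (SE 0.182, adjusted p = 7.22e-04) and -0.72 against one-week LL2 mice (SE 0.183, adjusted p = 0.013). The second call was lost with DESeq2 on the 2 groups alone (adjusted p = 0.0531) and without one-week replicate 1 (-0.52, adjusted p = 0.123) or three-week replicate 1 (0.0778). Genes for B cell markers fell with it: the summed level of 8 such genes was 44.0 to 52.9 CPM in naive, 42.4 to 52.7 in one-week and 12.1 to 13.7 in three-week libraries, with Cd79a and Ms4a1 above the limit of detection in naive libraries. Whether these cells had a part in the level of Socs1 was not tested.

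Cish (ENSMUSG00000032578, chr9:107296026-107302784), whose product binds receptors that activate STAT5 and whose promoter holds a pair of motifs, was the least abundant of the inhibitors. It had 4.83 and 6.88 CPM in naive libraries, 7.41 and 8.13 at 1 week, and 10.9 and 9.84 at 3 weeks, from 61 to 141 counts per library. Each group lay above the one before it. The log2 fold change at 3 weeks against naive mice was 0.83 (SE 0.222, adjusted p = 0.0178), and neither the change at 1 week (0.41) nor that between the weeks (0.42) passed the test. With DESeq2 the call was lost (adjusted p = 0.0502 with every library in the model and 0.0895 with naive and three-week libraries only), as it was without naive replicate 1 (0.175) or three-week replicate 1 (0.0802).

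Pim1 (ENSMUSG00000024014, chr17:29490753-29496112) encodes a serine/threonine kinase that supports survival and is a standard target of STAT3 and STAT5. Its levels were 51.4 and 71.0 CPM in naive, 64.6 and 67.1 in one-week and 123 and 92.6 in three-week libraries. Naive and one-week libraries overlapped, and both three-week libraries lay above them. The log2 fold change was 0.81 (SE 0.166, adjusted p = 0.00358) against naive and 0.71 (SE 0.165, adjusted p = 0.00771) against one-week LL2 mice. Leaving out naive replicate 1 ended the first call (0.57, adjusted p = 0.0709), and leaving out one-week replicate 1 (0.0674), one-week replicate 2 (0.0503) or three-week replicate 1 (0.0724) ended the second. The RefSeq promoters of Pim1 held no TTCNNNGAA.

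**Figure D3:**
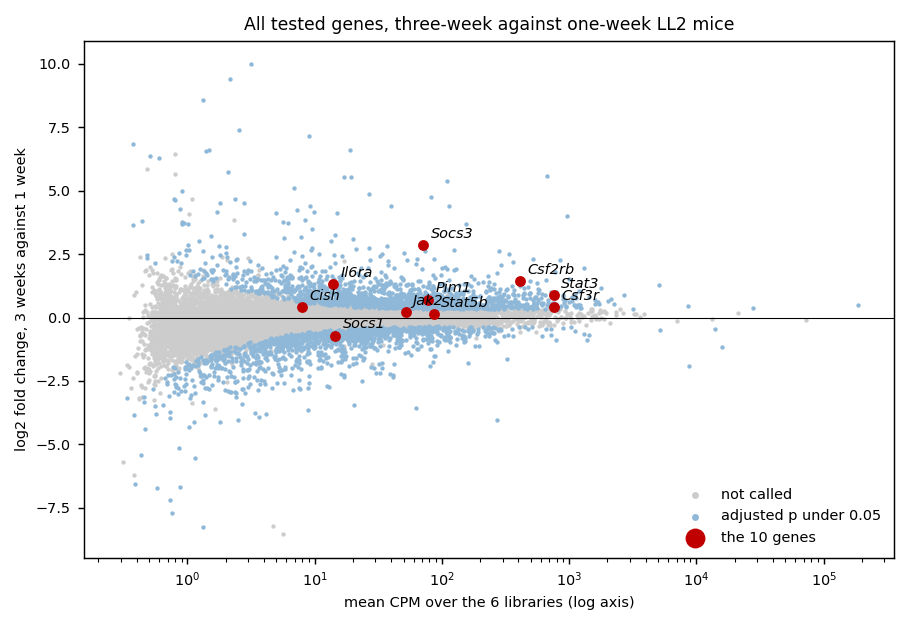
Log2 fold change of three-week against one-week LL2 mice for all 12259 tested genes, against their mean CPM over the 6 libraries (log axis), with the 10 genes in red and other genes past an adjusted p of 0.05 in blue. Socs3, at 2.84, is the highest of the 10 genes, and Socs1, at -0.72, the lowest.

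Over the 6 libraries, the genes whose log2 CPM followed that of Csf3r and Socs3 most closely were named by Pearson's r, as a description. For Csf3r they were 4833420G17Rik (r = 0.989), Tmem183a (0.988), Jak1 (0.986), Rab27a (0.983) and B9d2 (0.983). All of these share with Csf3r a highest value in three-week replicate 2, and 29 genes had an r over 0.95. For Socs3 they were Cux1 (r = 0.999), Tpd52 (0.999), Slc36a4 (0.998), Camk2b (0.998) and Slc28a2 (0.998). Here 434 genes had an r over 0.95. All 5 were highest in the 2 three-week libraries, and 6 points allow a high r for any gene of that shape.

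Other receptors that signal through JAK kinases were listed by name. Of 29 receptor genes, 23 were tested. None was called by edgeR at 1 week in the main fit, where 2 were lower at an unadjusted p under 0.05. These were Ifngr1 (adjusted p = 0.0502) and Il13ra1 (0.067). Other edgeR settings called Ifngr1 lower, with DESeq2 scaling (0.0412), no filter on low counts (0.0248) or a filter of 1 CPM (0.0498). Il13ra1 was called lower by edgeR with no such filter (0.00748) or with the replicate block (0.0497). DESeq2 with every library in the model called Ifngr1 (-0.45, adjusted p = 0.0226) and Il13ra1 (-0.63, adjusted p = 0.0472) lower and, with naive and one-week libraries only, neither. Of all tested genes, edgeR called 7.99% at 1 week. At 3 weeks 7 receptor genes were higher and 1 lower than in naive mice, with a median log2 fold change of 0.14. Over all tested genes 12.0% were higher and 9.42% lower, with a median of 0.04. Against one-week LL2 mice 8 receptor genes were higher and 3 lower, with a median of 0.36. Over all tested genes 12.9% were higher and 9.57% lower there, with a median of -0.02. Il4ra, the chain that binds IL-4 and also serves IL-13, had 120 and 177 CPM in naive libraries, 123 and 137 at 1 week, and 821 and 645 at 3 weeks. Il13ra1, its partner for IL-13, went from 13.9 and 21.2 CPM to 81.1 and 81.9, with 10.4 and 12.7 at 1 week. Three-week libraries of both genes lay above all others. The log2 fold changes against naive mice were 2.30 for Il4ra (adjusted p = 1.91e-06) and 2.21 for Il13ra1 (adjusted p = 2.96e-06). Ifngr1, the chain that binds interferon-gamma, had 87.1 and 81.9 CPM in naive, 56.7 and 68.6 in one-week and 227 and 227 in three-week libraries, with a change of 1.43 (adjusted p = 5.56e-06). The receptor genes called lower at 3 weeks were Il2rg against naive mice, with -0.97 (adjusted p = 0.00687), and Il2rb, Il7r and Il21r against one-week LL2 mice. Of these, Il2rb was at 6.94 CPM in one-week replicate 2 and at most 1.98 in the other libraries, and that library also had the highest sum of 8 T and NK cell markers, 38.0 CPM against 12.6 to 21.3. Its part in these values was not tested. Il2rb, Il2rg, Il7r and Il21r are named after their values were seen.

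Among the other JAK and STAT genes, Stat4 was lower at 3 weeks than in either other group, and Jak3 was higher than in one-week LL2 mice. Stat4, which serves IL-12 in lymphocytes, had 19.1 and 20.7 CPM in naive, 23.2 and 23.1 in one-week and 7.83 and 10.3 in three-week libraries. Its changes were -1.13 (adjusted p = 4.78e-04) against naive and -1.35 (adjusted p = 1.1e-04) against one-week LL2 mice. The B cell markers given above were lower in the same libraries. Of 5 tested T and NK cell markers, Cd3d was lower at 3 weeks in both comparisons (-1.98, adjusted p = 9.88e-05, and -2.32, adjusted p = 2.24e-05), Lck was lower than at 1 week (-2.40, adjusted p = 0.00772), and Nkg7 was higher than in naive mice (1.60, adjusted p = 0.0115). Cd3e, Cd3g and Cd8a were too low to be tested. The part of these cells in the level of Stat4 was not tested. Jak3, the kinase of the common gamma chain receptors, had 8.84 and 7.08 CPM at 3 weeks against 1.67 and 3.58 at 1 week (1.61, adjusted p = 0.014). The call was lost without one-week replicate 1 (0.125) or three-week replicate 1 (0.0585). In naive libraries Jak3 had 1.90 and 4.99 CPM, and its change at 3 weeks against naive mice was 1.21, not called (adjusted p = 0.051). That change was called with edgeR on the 2 groups alone (0.0414), with the replicate block (0.0244) and without the filter on low counts (9.86e-04). Jak1, the other kinase of the G-CSF receptor, lay between 316 and 377 CPM in all libraries and was not called.

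**Figure D4:**
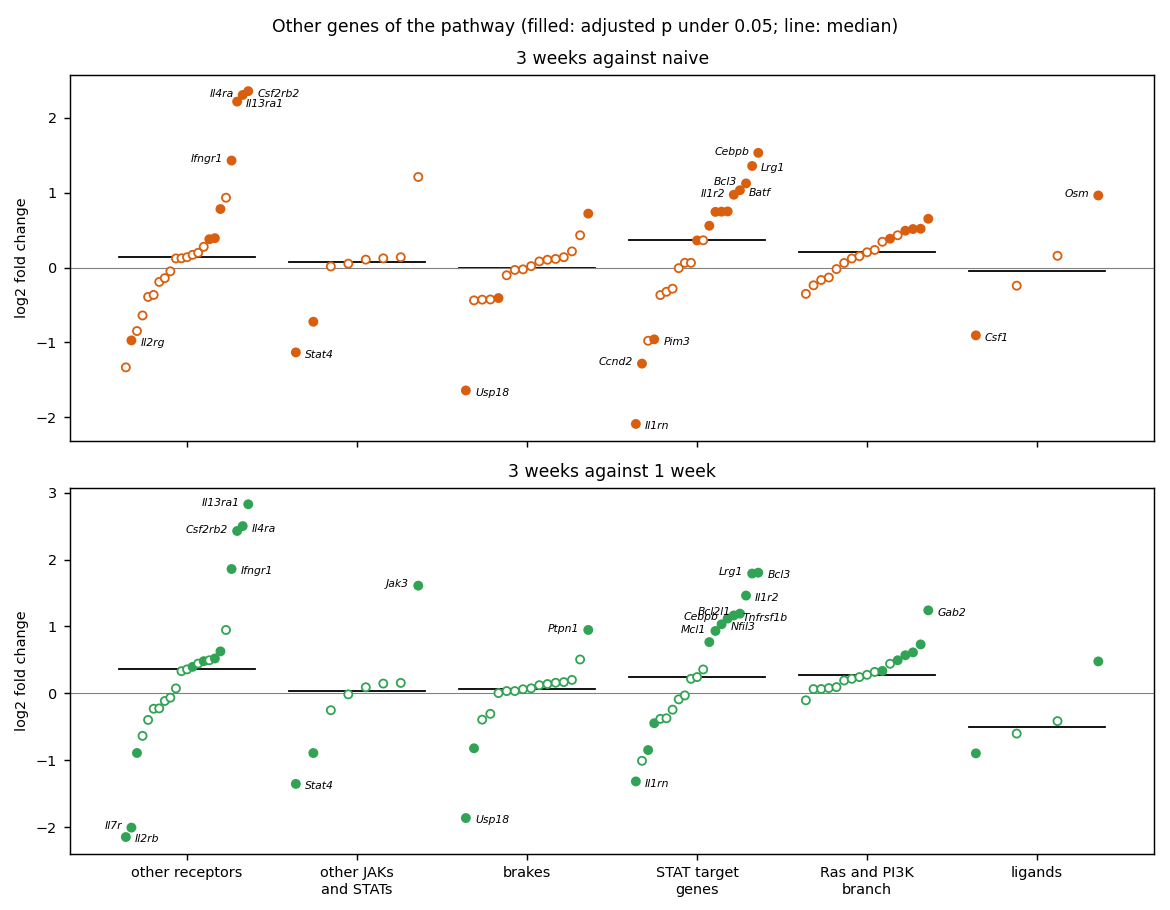
Log2 fold change of each tested gene of 6 further lists at 3 weeks against naive mice (upper panel) and against one-week LL2 mice (lower panel), with filled points for an adjusted p under 0.05 and lines for list medians. Il4ra, Il13ra1 and Csf2rb2 lie above 2 in both panels, and Usp18, Stat4 and Il1rn lie below -1 in both.

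Further brakes on the pathway formed a list of their own. Of 16 tested genes for SOCS and PIAS proteins, phosphatases and adaptors, 1 was higher and 1 lower at 1 week, where 7.99% of all tested genes were called. At 3 weeks against naive mice 1 was higher and 2 lower, where 21.4% of all tested genes were called. Socs2, which dampens growth hormone and cytokine receptors that use STAT5, had 9.5 and 12.3 CPM in naive libraries and 21.2 and 30.7 at 1 week, then 13.2 and 16.2 at 3 weeks. The rise at 1 week was 1.25 (adjusted p = 0.00378). Both one-week libraries exceeded the other 4, which set Socs2 apart from Socs3. The rise was lost without naive replicate 1 (1.07, adjusted p = 0.0822). Ptpn1, which encodes the phosphatase PTP1B that acts on JAK2, had 414 and 438 CPM in naive libraries and 702 and 702 at 3 weeks, with 364 and 364 between. Its change against naive mice was 0.72 (adjusted p = 3.83e-04). Usp18, an interferon-induced brake on the interferon receptor, had 12.9 and 19.4 CPM in naive libraries and 3.8 and 6.54 at 3 weeks, a change of -1.64 (adjusted p = 5.54e-04). Ptpn6, which encodes the phosphatase SHP-1, fell by 0.41 on the log2 scale (adjusted p = 0.0185). It kept no call without naive replicate 2 (0.0885), three-week replicate 1 (0.0695) or three-week replicate 2 (0.106).

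Genes that textbooks give as targets of STAT3 or STAT5 were a further list. Of 21 tested, 10 were higher and 3 lower at 3 weeks than in naive mice, with a median of 0.36. Over all tested genes 12.0% were higher and 9.42% lower, with a median of 0.04. Against one-week LL2 mice 9 of the list were higher and 3 lower, with a median of 0.24. Over all tested genes 12.9% were higher and 9.57% lower there, with a median of -0.02. At 1 week edgeR called Pim3, Junb and Il1rn lower and none higher. Over all tested genes 3.76% were called lower and 4.23% higher. At an unadjusted p under 0.05, 10 of the list were lower and 2 higher. The list median was -0.30, against 0.01 for all tested genes. The calls of Pim3 and Junb were lost whichever naive or one-week library was left out (adjusted p from 0.0713 to 0.22). Bcl3 and Il1r2 were called lower at 1 week by DESeq2 with all libraries (adjusted p = 0.0313 and 0.0421) and by edgeR on the 2 groups alone (0.0172 and 0.0158), and without the filter on low counts Cebpb was called higher (0.41, adjusted p = 0.0133). Cebpb, a transcription factor that drives emergency granulopoiesis, had 373 and 278 CPM in naive, 502 and 364 in one-week and 929 and 953 in three-week libraries, a change of 1.53 against naive mice (adjusted p = 3.56e-05). Mcl1, the survival protein on which neutrophils depend, went from 922 and 962 CPM to 1633 and 1532 (0.75, adjusted p = 3.84e-04). Bcl3, a nuclear partner of NF-kappaB, changed by 1.12 (adjusted p = 0.00103), and Il1r2, a decoy receptor for IL-1, by 0.97 (adjusted p = 0.00133). In the opposite direction, Il1rn, the IL-1 receptor antagonist, had 190 and 180 CPM in naive libraries and 42.5 and 44.4 at 3 weeks, -2.09 on the log2 scale (adjusted p = 2.72e-07), and Pim3, a relative of Pim1, changed by -0.96 (adjusted p = 6.91e-04). The cell cycle gene Ccnd2 changed by -1.28 (adjusted p = 2.54e-04). Many of these genes answer to other factors as well, and the list was written with earlier results of these data known.

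The motif TTCNNNGAA was found in the promoters of 4 of 20 list genes among these targets and in 5 of 23 of the other receptors, against 9.55% of all genes. It was found in 2 of 11 ligand genes and in none of 7 other JAK and STAT genes, 9 brakes and 10 genes of the Ras and PI3 kinase branch. Sites of the list genes called at 3 weeks in either comparison are shown in their sense orientation with 10 bases on each side, the motif in capitals, from positions -15 of Csf2rb2 (chr15:78305718-78305746), -214 of Ifnar2 (chr16:91372559-91372587), -142 of Il7r (chr15:9530000-9530028), -111 of Il1r2 (chr1:40085972-40086000) and -181 of Tnfrsf1b (chr4:145247033-145247061).
Csf2rb2: gtgtccacaaTTCTGAGAAgcaagcaaag
Ifnar2: tgccaaggccTTCCTGGAAgaagagagta
Il7r: gttcaggagcTTCAGGGAAtaccaagatg
Il1r2: cgggtgctttTTCAAGGAActtccgacta
Tnfrsf1b: agcgcattcaTTCCCGGAAgagatgctgg
Csf2rb2, Ifnar2, Il1r2 and Tnfrsf1b were higher at 3 weeks than in naive mice, whereas Il7r was lower than in one-week LL2 mice (-2.01, adjusted p = 0.0328). Il4ra, Il13ra1 and Mcl1, which were higher too, held no such letters in their promoters, and Bcl6, Icam1 and Ifnar1 held the motif and were not called.

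In the Ras and PI3 kinase branch that the G-CSF receptor also uses, 17 genes were tested. At 1 week edgeR called Gab2, Pik3cd and Pik3r1 lower and none higher, with 4 lower and 1 higher at an unadjusted p under 0.05. Over all tested genes 3.76% were called lower and 4.23% higher. Pik3cd lost its call whichever naive or one-week library was left out (adjusted p from 0.0973 to 0.202) and Pik3r1 without naive replicate 1 (0.0649). Without the filter on low counts Map2k1 was called higher (0.46, adjusted p = 0.0267). At 3 weeks 5 were higher against naive mice and 6 against one-week LL2 mice, and none was lower. Over all tested genes 12.0% were higher and 9.42% lower against naive mice, and 12.9% and 9.57% against one-week LL2 mice. Gab2, the adaptor that links the receptor to PI3 kinase, followed the course of Stat3: 41.4 and 45.4 CPM in naive, 27.2 and 24.4 in one-week and 60.3 and 61.8 in three-week libraries. Its changes were -0.75 (adjusted p = 0.00456), 0.49 (adjusted p = 0.0133) and, between the weeks, 1.24 (adjusted p = 2.31e-05). The first was lost without one-week replicate 2 (0.0595) and the second with library totals alone (0.0758) and without naive replicate 1 (0.125) or three-week replicate 2 (0.0567). Lyn, a Src-family kinase bound to the receptor, rose by 0.61 against one-week LL2 mice (adjusted p = 0.00147). Its change against naive mice, 0.39 (adjusted p = 0.0245), lost its call with library totals alone (0.24, adjusted p = 0.143), with edgeR on the 2 groups alone (0.0628) and whichever library other than three-week replicate 2 was left out (adjusted p from 0.0528 to 0.15).

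Of 15 cytokine ligand genes, 4 were tested. Csf3, which encodes G-CSF itself, had 0 counts in all 6 libraries, as did Csf2 for GM-CSF, which allows up to 0.25 CPM in the shallowest library. Il6 had at most 0.154 CPM, under that limit. Oncostatin M, a cytokine of the IL-6 family encoded by Osm, was abundant, with 781 and 749 CPM in naive, 1179 and 960 in one-week and 1575 and 1404 in three-week libraries. Against naive mice Osm changed by 0.48 (adjusted p = 0.0316) at 1 week and 0.96 (adjusted p = 1.6e-04) at 3 weeks. The call at 1 week was lost without naive replicate 1 (0.146), naive replicate 2 (0.114) or one-week replicate 1 (0.302). Il11 had 57.9 and 58.6 CPM in naive libraries, 117 and 124 at 1 week and 61.1 and 68.8 at 3 weeks, and was called higher at 1 week (1.05, adjusted p = 3.45e-04) but not at 3 weeks (0.16, adjusted p = 0.392). The level of its receptor gene Il11ra1 did not pass the test in any comparison.

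Markers of cell stage and of other cells also differed between the groups. The sum of 4 primary granule genes, Mpo, Elane, Prtn3 and Ctsg, which mark early neutrophil precursors, was 41.9 to 50.7 CPM in naive, 48.3 to 85.0 in one-week and 243 to 340 in three-week libraries. All 4 were called higher at 3 weeks than in naive mice, where 12.0% of all tested genes were higher and 9.42% lower. The sum of 4 secondary granule genes was 40839 to 46947, 44225 to 44956 and 25525 to 29859 CPM in the same order, with 3 of 4 called lower. Lcn2 of this list was not called against naive mice (0.05, adjusted p = 0.846). Of 7 neutrophil markers, Cxcr2 (0.70, adjusted p = 0.00288) and Retnlg (0.44, adjusted p = 0.0135) were higher at 3 weeks than in naive mice, and none was lower. Monocyte and macrophage markers summed to 144 to 190 CPM in all 6 libraries, with members called in both directions. Against naive mice at 3 weeks F13a1 was higher (2.39, adjusted p = 3.23e-04), and Cx3cr1 (-1.59, adjusted p = 0.00197) and Irf8 (-0.58, adjusted p = 0.0161) were lower. Progenitor markers summed to 26.0 to 35.6 CPM, and of these Kit was higher at 3 weeks than at 1 week (1.02, adjusted p = 0.00972). Eosinophil, basophil and mast cell markers, from cells that use Csf2rb as well, summed to 81.1 to 85.5 CPM in naive, 114 to 130 in one-week and 55.6 to 69.7 in three-week libraries. Mcpt8, Prss34 and Cpa3 were lower at 3 weeks in both comparisons, while Siglecf was higher than at 1 week (1.52, adjusted p = 0.0117). The part of these cells in the level of Csf2rb was not tested. The markers named for these lists were chosen after their values were seen. The part of the primary and secondary granule genes in the levels of Socs3, Csf2rb and the other genes was not tested.

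**Figure D5:**
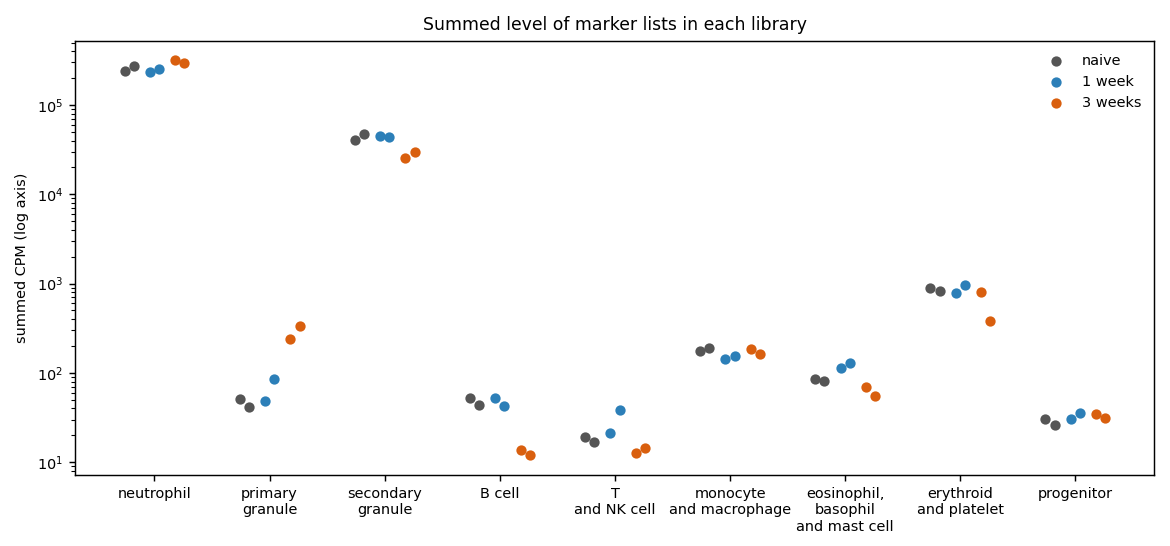
Summed CPM (log axis) of 9 marker gene lists in each library, with 2 points for each of naive, one-week and three-week LL2 mice. At 3 weeks the primary granule sum lies at 243 and 340 CPM, above the other 4 libraries, and the B cell sum at 13.7 and 12.1 CPM, below them.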

How the data were processed

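RNA of Ly6G-selected bone marrow cells was sequenced single-end by the authors from total RNA libraries. Per the labels and methods, the authors aligned reads with RSEM and Bowtie2 against mm10 (RSEM 1.2.31 in the submitters' processing notes, another version in the methods). What they deposited were expected counts, whole and unscaled, with 1 column per library. Of 38887 identifiers, 37570 matched GENCODE M21 of GRCm38, the same build. Low counts were removed by filterByExpr, libraries scaled by TMM, and groups tested with edgeR 4.0.16 (quasi-likelihood, R 4.3.3), all 6 libraries sharing 1 model, with Benjamini-Hochberg adjustment over 12259 genes. The script was tested on simulated data. Whether counting used strand is not given in the sources used here, so reads where exons of Stat3 and Stat5a overlap on opposite strands cannot be told apart. Besides the shares given above, 10.7% of the 50-base windows of Csf3r transcripts also occur in another gene, 9.35% of those of Cish and 8.78% of those of Pim1. The titles give a mouse and a replicate number for each library, with 2 per group, and do not say that the replicates were different mice. The paper's legend for the RNA-seq figure states more samples per group than these 2. The 10 genes and the gene lists were chosen with earlier results of these data known. The text names all 10 genes, up to 4 called genes per list and comparison by smallest adjusted p, close partners, the 5 genes most like Csf3r and Socs3, and others where said. Alternatives were DESeq2 1.42.0, other scalings, filters and thresholds, a replicate block, each library left out, and summed counts of Csf2rb and Csf2rb2. Some items of the gene lists are not reported here.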

Additional observations from a re-analysis of the deposited data

Results flagged for a closer look

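For 7 of the 10 genes the level at 3 weeks differed from that at 1 week by the direct test, where 22.5% of all tested genes were called. This test compares no naive levels, but the naive libraries still entered its model and its estimate of the spread. The calls of Csf3r, Socs1 and Pim1 between the weeks were lost under several alternatives given above. The log2 differences were 2.84 for Socs3, 1.43 for Csf2rb, 1.32 for Il6ra, 0.89 for Stat3, 0.71 for Pim1, 0.42 for Csf3r and -0.72 for Socs1. Stat3 alone among them was called in opposite directions against naive mice, lower at 1 week and higher at 3 weeks. Both of these calls were lost under several alternatives given above. Jak2, Stat5b and Cish were not called in the test between the weeks.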

How the results depend on the processing

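Over 14 alternatives each, and the summed Csf2rb count chosen after seeing the data, Socs3, Csf2rb and Socs1 at 3 weeks against naive mice kept direction and call, as did Socs3, Csf2rb, Il6ra and Stat3 between the weeks. With 2 libraries per group, leaving one out leaves a lone library that is assumed to vary like the other groups. Genes called at 1 week against naive, at 3 weeks against naive and between the weeks, 979, 2626 and 2759, became 274, 1339 and 1481 at an adjusted p under 0.01 and 92, 208 and 196 with a change over 5-fold as well. Without the filter on low counts, 1537 were called at 1 week. With one library left out, the counts ran from 147 (without naive replicate 1) to 1145, from 1362 (without naive replicate 1) to 2392 and from 1502 (without one-week replicate 2) to 2725, and those of the 10 genes from 0 to 2, 3 to 7 and 4 to 6. The causes were not tested.

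With library totals alone, the sign turned for uncalled genes: Jak1 to 0.021 at 1 week, Jak2 to -0.07, Jak1 to -0.024, Pik3cd to -0.025 and Stat5a to -0.043 at 3 weeks against naive, and Stat5b to -0.066, Cbl to -0.002, Jak1 to -0.045 and Map2k1 to -0.011 between the weeks. Signs of uncalled genes also turned with one library left out. At 1 week the log2 fold changes then ran from -0.19 to 0.019 for Csf3r, -0.33 to 0.13 for Csf2rb, -0.11 to 0.36 for Pim1, -0.053 to 0.12 for Csf2ra, -0.34 to 0.16 for Csf2rb2, -0.45 to 0.10 for Il4ra, -0.38 to 1.55 for Il6st, -1.04 to 0.45 for Jak3 and -0.046 to 0.54 for Usp18. At 3 weeks against naive they ran from -0.48 to 1.41 for Il6st and -0.009 to 0.26 for Pik3cd. Between the weeks they ran from -0.60 to 0.50 for Il6st, -0.005 to 0.36 for Map2k1 and -0.069 to 0.063 for Stat5a.

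The labels do not say whether same-numbered libraries belonged together. Their deviations from the group means correlated at 0.01, 0.036 and 0.038, and with 2 libraries per group such values cannot settle a pairing. With the replicate block, 959, 2559 and 2709 genes were called, and 2, 7 and 6 of the 10.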
